A study of Homo sapiens with 18 samples.

Results

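Of the 16575 genes with a value in the CAGE-seq data, 7 are described here: WWOX, TFAP2A and TFAP2C, which encode the proteins WWOX, AP-2α and AP-2γ that the study overexpressed, and CITED2, CITED4, KCTD1 and KCTD15, which encode cofactors of AP-2. The genes were taken by name, as the study's subject and its known cofactors, at a time when earlier results of these data were known. All 7 were among the 13022 genes that reached 5 CPM (the reads on a gene scaled to a common library total) in at least 1 library.

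WWOX is a cytoplasmic adaptor with WW domains, encoded across the fragile site FRA16D, and is known as a tumor suppressor that binds partners through proline-rich motifs, AP-2 proteins among them. The AP-2 factors bind GC-rich elements in promoters and enhancers and regulate epithelial differentiation, growth and receptor tyrosine kinase genes. CITED2 and CITED4 carry no DNA-binding domain of their own and recruit the acetyltransferases p300 and CBP to AP-2, whereas KCTD1 and KCTD15, proteins with a BTB domain, repress transcription by AP-2.

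By CAGE-seq, RNA is read from its capped 5′ end, and this was done in RT-112, HT-1376 and CAL-29, 3 established lines of human urinary bladder carcinoma. Each line passed through a pair of stable lentiviral transductions, the first with WWOX in a pLenti-GIII-CMV-GFP-2A-Puro vector or a blank control, the second with AP-2α or AP-2γ in a pLKO-Neo-CMV vector or a blank control. The letters of a variant name the load of the first and then of the second virus: KK carried blank controls in both, KA a control and AP-2α, KC a control and AP-2γ, WK WWOX and a control, WA WWOX and AP-2α, and WC WWOX and AP-2γ. Every cell thus carried lentiviral vectors at a multiplicity of infection of 3 and had gone through selection with puromycin and then G418, controls included. Expression from a CMV promoter is constitutive, and how many integrations or clones each line of transductants holds is not given in the sources used here. Each variant had 1 library per cell line (n = 3 per variant, 18 libraries), so the spread within a variant is that between cell lines and no variant was repeated within a line.

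Each library held 13357102 to 17958572 reads on genes, and 1 read was worth 0.0526 to 0.0709 CPM. The library labelled CAL-29 KC stood apart: its profile over all genes had a median correlation of 0.741 with the other CAL-29 libraries and of 0.940 with those of HT-1376, whereas the other 17 libraries had 0.901 to 0.988 with their own line and at most 0.834 with another. It held 6 of the 7 genes within the range of HT-1376 and 2 of 7 within that of the other CAL-29 libraries. It is named as the library labelled CAL-29 KC throughout, and results in which it was left out or kept are told apart. All 5 epithelial markers were present in every library, EPCAM at 20.9 CPM or more and KRT19 from 12.6 to 7910 CPM. The fibroblast marker COL1A1 was present too, at 1.32 to 23.3 CPM, and DCN, the other one looked for, had no value. GATA3, a factor of urothelial identity, ranged from 73.8 to 369.7 CPM. The uroplakin genes UPK2 and UPK3A reached 43.7 and 6.08 CPM but fell to 0.21 and 0 CPM in the lowest libraries.

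CAGE counts transcripts at their starts, so the bases just before the start of a gene are shown for 3 of the genes whose values the results turn on. RefSeq promoter windows (build GRCh38.p14) had an entry for 5 of the 7 genes, in 11 windows. The motif searched, GCCNNNGGC, is the palindromic core to which AP-2 binds, and reads the same on both strands. It was found in 4 of the 11 windows, of CITED2, CITED4 and KCTD1, and in 19.8% of 35116 windows of 250 bases before RefSeq starts. By gene this was 3 of 5, against 23.0% of 27305 genes with at least 1 window holding it. The shares by gene are not like for like, since the 5 genes have more windows each (11 windows) than genes at large (35116 windows for 27305 genes). The windows of CITED2, the gene that fell in HT-1376, of CITED4, the gene that differed most between cell lines, and of TFAP2A itself, which holds no match, are given 5′ to 3′ on the minus strand with the motif in capitals. They span chr6:139374649-139374898 (CITED2), chr1:40862364-40862613 (CITED4) and chr6:10419660-10419909 (TFAP2A). These are the first windows listed, and further windows of CITED2 and TFAP2A held no match.
CITED2: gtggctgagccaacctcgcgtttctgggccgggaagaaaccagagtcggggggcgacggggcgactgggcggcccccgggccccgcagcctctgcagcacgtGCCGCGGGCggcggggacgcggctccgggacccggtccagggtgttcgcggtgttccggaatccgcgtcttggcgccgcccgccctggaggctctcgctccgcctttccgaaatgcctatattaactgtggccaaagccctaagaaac
CITED4: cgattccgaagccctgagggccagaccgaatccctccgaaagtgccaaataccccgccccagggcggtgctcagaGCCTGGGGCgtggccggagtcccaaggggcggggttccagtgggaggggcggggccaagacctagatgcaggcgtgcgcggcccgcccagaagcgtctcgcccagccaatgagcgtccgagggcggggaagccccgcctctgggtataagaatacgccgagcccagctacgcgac
TFAP2A: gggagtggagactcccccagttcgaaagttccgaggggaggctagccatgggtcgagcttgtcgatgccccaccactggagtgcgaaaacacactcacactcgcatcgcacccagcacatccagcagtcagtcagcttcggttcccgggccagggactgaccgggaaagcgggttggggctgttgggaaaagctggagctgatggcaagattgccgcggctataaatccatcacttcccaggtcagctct
The match began 148 bases before the start in CITED2 and 175 bases before it in CITED4. A match is a description of the letters and not an observed binding site.

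TFAP2C was higher in each library transduced with AP-2γ than in its matched control, TFAP2A in most of those transduced with AP-2α, and WWOX only in CAL-29 and in 1 pair of HT-1376. These values check the labels, with a limit: the rule by which tags were assigned to genes is not given in the sources used here, so whether tags from the CMV promoter of a vector count toward the gene was not tested. Nor can the RNA of a gene in the vector and in the genome be told apart in a value per gene. The study states that it also probed the WWOX and AP-2 proteins by Western blot, to establish that transduction had succeeded. Those blots were not analysed here.

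WWOX (chromosome 16, 78099400 to 79212667 on the plus strand in GENCODE 44 on GRCh38) is a large gene of the fragile site. In RT-112 it stood at 26.0 (KK), 23.5 (KA) and 25.9 CPM (KC) without WWOX and at 22.3 (WK), 18.95 (WA) and 18.45 CPM (WC) with it. All 3 libraries labelled with WWOX therefore lay below the 3 without it, and 11.5% of genes were lower in this way in RT-112. The HT-1376 libraries held it at 22.4 (KK), 24.7 (KA) and 16.95 CPM (KC) without WWOX and at 18.6 (WK), 19.2 (WA) and 23.1 CPM (WC) with it, and the libraries with and without the WWOX vector overlapped. The CAL-29 libraries held it at 63.7 (KK) and 51.3 CPM (KA) without WWOX, at 154.9 (WK), 69.3 (WA) and 62.4 CPM (WC) with it, and at 22.4 CPM in the library labelled CAL-29 KC. CAL-29 WK was the highest of all 18 libraries, whereas CAL-29 WC lay just below KK.

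TFAP2A (chromosome 6, 10393186 to 10419659 on the minus strand) encodes AP-2α. In RT-112 it stood at 18.01 (KK), 46.8 (KA) and 19.0 CPM (KC) without WWOX and at 20.3 (WK), 25.3 (WA) and 21.2 CPM (WC) with it, so that the 2 libraries with AP-2α were the 2 highest. In HT-1376 it stood at 69.0 (KK), 100.7 (KA) and 55.95 CPM (KC) without WWOX and at 76.9 (WK), 69.9 (WA) and 72.9 CPM (WC) with it. KA was the highest there, and WA lay below WK. In CAL-29 it stood at 35.4 (KK) and 49.9 CPM (KA) without WWOX, at 61.7 (WK), 86.7 (WA) and 31.7 CPM (WC) with it, and at 78.75 CPM in the library labelled CAL-29 KC. KA and WA of CAL-29 each lay above the library with the blank second virus, whereas the range of the other libraries reached above KA.

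TFAP2C (chromosome 20, 56629306 to 56639283 on the plus strand) encodes AP-2γ. In RT-112 it stood at 57.95 (KK), 49.4 (KA) and 263.7 CPM (KC) without WWOX and at 56.2 (WK), 179.9 (WA) and 142.75 CPM (WC) with it. The library labelled RT-112 WA, which by its label received AP-2α and not AP-2γ, was above WC and at 3.20 times WK (95% counting interval 2.98 to 3.44). In HT-1376 the gene stood at 158 (KK), 172 (KA) and 214 CPM (KC) without WWOX and at 69.0 (WK), 98.0 (WA) and 163 CPM (WC) with it. The CAL-29 libraries held it at 87.95 (KK) and 70.3 CPM (KA) without WWOX, at 93.1 (WK), 79.85 (WA) and 339 CPM (WC) with it, and at 194 CPM in the library labelled CAL-29 KC, so that the 4 libraries without AP-2γ were at or below the 93.1 CPM of WK.

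**Figure D1:**
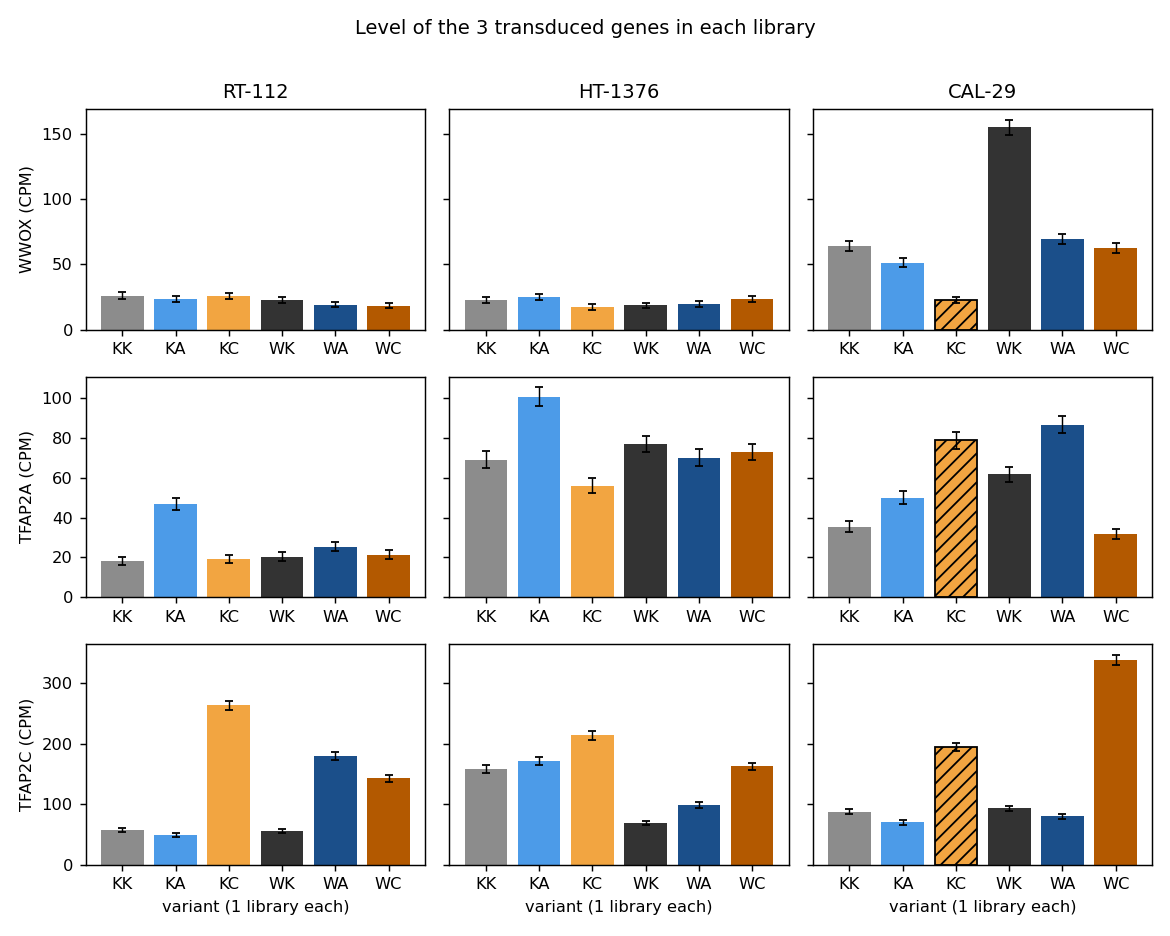
Bars give the CPM of WWOX, TFAP2A and TFAP2C (rows, linear axes from 0) in each of the 18 libraries, by variant and cell line (columns), with 95% exact Poisson intervals for counting error, the hatched bar being the library labelled CAL-29 KC. WWOX reached 154.9 CPM in CAL-29 WK and stayed at 26.0 CPM or less in RT-112, and TFAP2C was highest in KC of RT-112 and in WC of CAL-29.

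A library with a transduced gene was then set against the library that, by its label, was of the same line and differed only in that transduction. Exact intervals for counting error at 95% were used, since no variant was repeated within a line. Pairs with the library labelled CAL-29 KC, whose profile was closer to HT-1376, may also differ in cell line. Of 21 pairs, 15 had an interval wholly above 1, among them the TFAP2C and the WWOX pair with that library. After TMM scaling, which equalizes the bulk of genes between libraries, the same 15 ratios were above 1 and 14 intervals lay wholly above it. TFAP2C was higher in 6 of 6 pairs (5 of 5 without the pair that holds the library labelled CAL-29 KC), by 1.35 (1.28 to 1.43) for KC against KK in HT-1376 to 4.55 times (4.26 to 4.87) for the same pair in RT-112. TFAP2A was higher in 5 of 6 pairs, the most in KA against KK of RT-112 at 2.60 times (2.29 to 2.96), and the exception was WA against WK in HT-1376 at 0.909 times (0.839 to 0.985). WWOX was higher in 4 of 9 pairs, among them WC of CAL-29 against the library labelled CAL-29 KC. That library held WWOX at 22.4 CPM, within the range of HT-1376 (16.95 to 24.74 CPM). WC of CAL-29, at 62.4 CPM, lay between KA (51.3 CPM) and KK (63.7 CPM) of its line. The ratio was 2.43 (2.27 to 2.61) for WK against KK, 1.35 (1.24 to 1.47) for WA against KA and 2.78 (2.47 to 3.14) for WC in CAL-29, the last against the library labelled CAL-29 KC, and WC against KC of HT-1376 had 1.36 (1.16 to 1.60). With TMM scaling the CAL-29 ratio of WA to KA was 1.03, the 1 pair whose interval then reached below 1. In RT-112 the ratios were 0.857, 0.806 and 0.713 for WK, WA and WC against KK, KA and KC, each with an interval below 1. These intervals hold counting error only and leave out the variation between cultures.

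**Figure D2:**
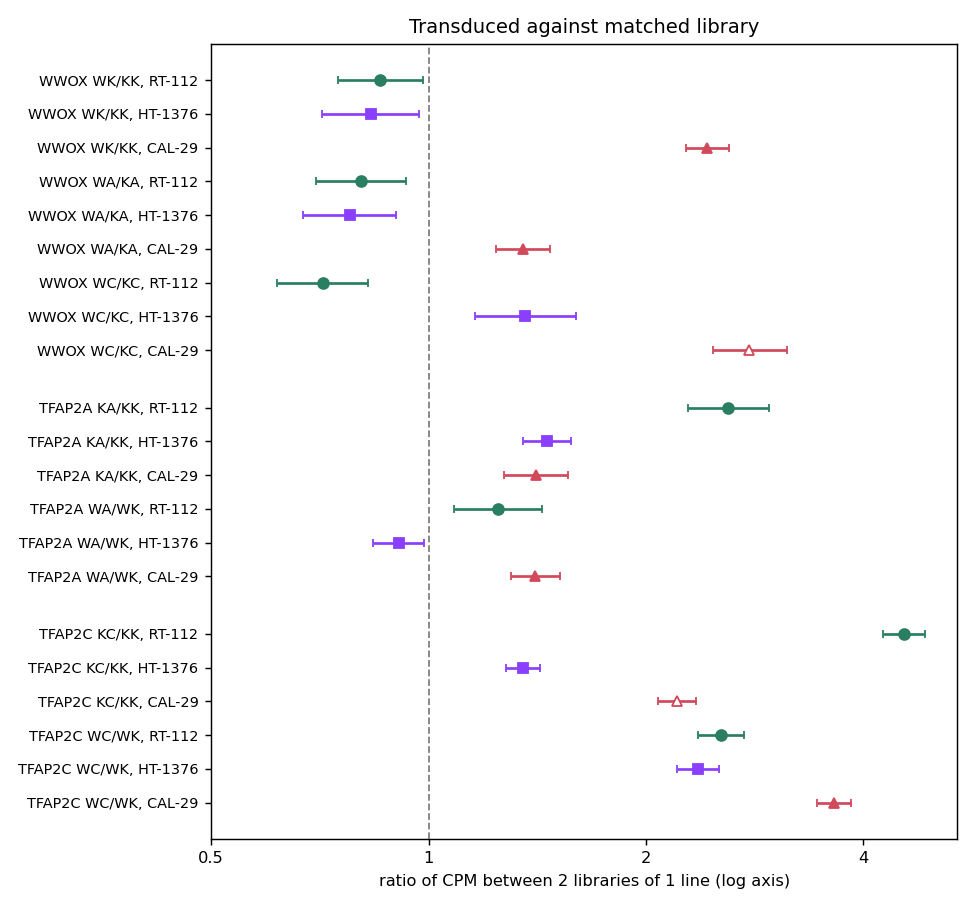
Each point is the CPM of a transduced gene in 1 library over that in the library labelled as the same line without that transduction, on a log axis, with a 95% counting interval. Shapes mark the cell line by label, open symbols the pairs with the library labelled CAL-29 KC, and the dashed line equality. All 6 pairs of TFAP2C lie above 1, and 5 of the 9 pairs of WWOX lie below it.

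The study's comparisons set each variant against KK with the cell lines as replicates. None of the 7 genes passed limma with Benjamini-Hochberg adjustment in any of the 5 comparisons, and neither did any other gene (0 of 13022 called, 0.0% in each). Limma-voom and edgeR on the recovered reads also called 0 genes. At an unadjusted p under 0.05, limma found 38 genes (0.292%) for WWOX alone (WK/KK), 7 (0.0538%) for AP-2α alone (KA/KK) and 11 (0.0845%) for AP-2γ alone (KC/KK). With WWOX beside AP-2α (WA/KK) it found 37 (0.284%), and beside AP-2γ (WC/KK) 84 (0.645%). Of the 7 genes only TFAP2C was among them, in KC/KK and WC/KK. All 5 shares lie far below the 5% that this threshold gives when nothing differs. The fit has no term for the cell line, so differences between lines enter its error. Its 0 calls therefore do not show that no gene changed.

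TFAP2C averaged 101 ± 51.5 CPM (SD, n = 3) in KK, 224 ± 35.8 in KC and 215 ± 108 in WC. Its log2FC was 1.25 (SE 0.50, limma, unadjusted p = 0.024, adjusted p = 1.00) for KC/KK and 1.09 (SE 0.50, unadjusted p = 0.045, adjusted p = 1.00) for WC/KK, and it was higher in 3 of 3 lines in both. Without the library labelled CAL-29 KC, the KC libraries stood at 263.7 and 213.9 CPM, the log2FC for KC/KK was 1.35 (SE 0.58, unadjusted p = 0.034, adjusted p = 1.00) and 14 genes had an unadjusted p under 0.05. With the cell line as a block, which pairs the libraries of a line, the adjusted p of TFAP2C was 0.90 for KC/KK and 0.46 for WC/KK, and none of the 7 genes passed. Over all genes limma with the block called 0 in each comparison, and edgeR with the block called 5 (0.0384%) in KC/KK and 0 in the other 4. TFAP2A averaged 40.8 ± 25.9 CPM in KK, 65.8 ± 30.3 in KA and 60.6 ± 31.7 in WA. Its log2FC was 0.79 (SE 0.71) for KA/KK and 0.59 (SE 0.71) for WA/KK, within its error in this fit, and it was above KK in 3 of 3 lines in both. The block gave TFAP2A an unadjusted p of 0.034 for KA/KK and 0.10 for WA/KK (adjusted p = 1.00 in both). WWOX averaged 37.4 ± 22.9 CPM in KK and 65.3 ± 77.7 in WK, and its log2FC was 0.27 (SE 0.76) for WK/KK, -0.18 for WA/KK and -0.16 for WC/KK. The WK value rested on CAL-29: without that line it was -0.24 (SE 0.32). With TMM scaling the WC value became 0.09.

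A fit with terms for the cell line and for each of the 3 transductions used all backgrounds of a virus at once, on 17 libraries without the one labelled CAL-29 KC. No gene of 12991 was called by limma for any transduction (0.0%), whereas an unadjusted p under 0.05 was found for 1591 genes with WWOX (12.2%), 197 with AP-2α (1.52%) and 341 with AP-2γ (2.62%). In the same fit edgeR called 13, 1 and 2 genes and limma-voom 69, 0 and 0, none of them among the 7. By unadjusted p, 1 of the 7 was among the genes found for each virus, CITED2, TFAP2A and TFAP2C in that order. AP-2γ moved TFAP2C by a log2FC of 1.40 (SE 0.35, unadjusted p = 0.0010, limma adjusted p = 1.00, edgeR 0.64, limma-voom 0.46). AP-2α moved TFAP2A by 0.51 (SE 0.21, unadjusted p = 0.026, limma adjusted p = 1.00). WWOX transduction gave WWOX a log2FC of 0.05 (SE 0.18), which was -0.20 (SE 0.14) without CAL-29. Neither AP-2 factor had a difference beyond its error on the other's gene: TFAP2C had 0.25 (SE 0.33) with AP-2α and TFAP2A had -0.19 (SE 0.22) with AP-2γ. WWOX transduction gave 0.09 (SE 0.18) for TFAP2A and -0.07 (SE 0.28) for TFAP2C, and both signs turned under an alternative.

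**Figure D3:**
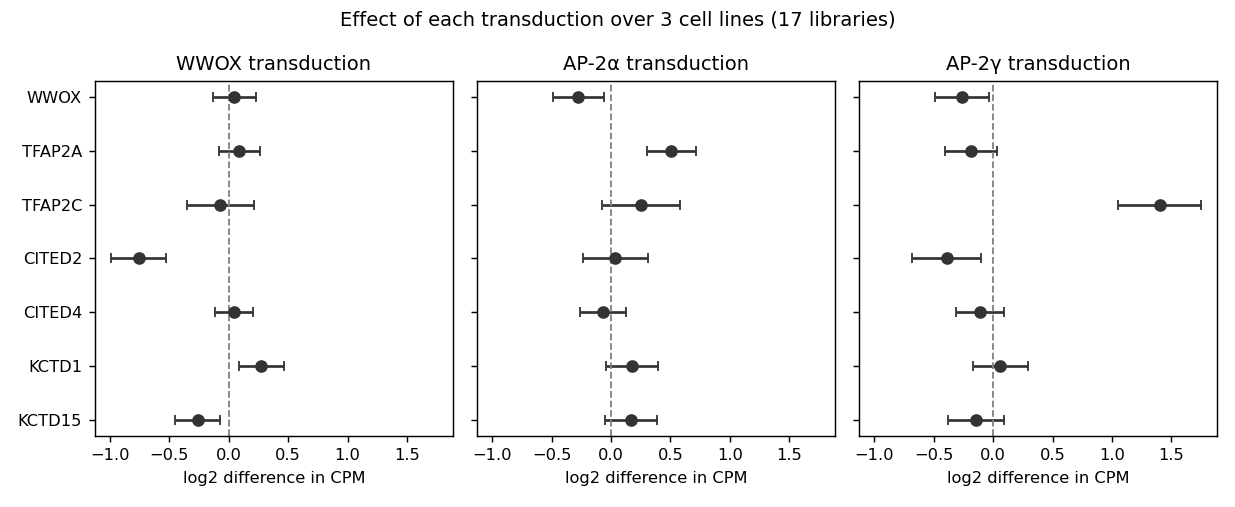
Points give the log2 difference in CPM of each of the 7 genes with WWOX, AP-2α or AP-2γ transduction, over all 3 lines and 17 libraries, with the SE of the limma fit as bars. TFAP2C with AP-2γ (1.40), CITED2 with WWOX (-0.76) and TFAP2A with AP-2α (0.51) lie farthest from 0, and none passed the adjusted threshold.

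The cofactors that recruit p300 and CBP came next, and CITED2 was the one whose values parted with WWOX. Of the promoter windows of CITED2, only that printed above holds the motif. CITED2 (chromosome 6, 139371807 to 139374648 on the minus strand) competes with HIF1A for p300 as well as serving AP-2. The HT-1376 libraries held it at 128 (KK), 194 (KA) and 51.0 CPM (KC) without WWOX and at 37.9 (WK), 40.1 (WA) and 48.0 CPM (WC) with it. All 3 libraries with WWOX lay below the 3 without it, though KC and WC differed little, at 0.941 times (0.852 to 1.04), against 0.296 times (0.271 to 0.324) for WK against KK and 0.207 times (0.190 to 0.225) for WA against KA. In CAL-29 it stood at 37.6 (KK) and 37.8 CPM (KA) without WWOX, at 27.3 (WK), 26.1 (WA) and 13.8 CPM (WC) with it, and at 114 CPM in the library labelled CAL-29 KC. The groups did not overlap in CAL-29 either once that library was left out, and lower values in this sense were found for 22.8% of genes in HT-1376 and for 9.8% of genes in CAL-29. CITED2 was low throughout RT-112, at 15.6 (KK), 14.3 (KA) and 16.5 CPM (KC) without WWOX and at 14.4 (WK), 11.7 (WA) and 13.1 CPM (WC) with it, and WK lay above KA.

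WWOX transduction gave CITED2 a log2FC of -0.76 (SE 0.23, unadjusted p = 0.0050, limma adjusted p = 0.29) over the 3 lines. In HT-1376 alone it fell by 1.36 on the log2 scale (SE 0.34, limma adjusted p = 0.041), the only one of the 7 genes called there, against 1262 of 12991 genes called (9.71%), of which the higher were 4.69% of all genes and the lower 5.03%. By unadjusted p, CITED2 and KCTD1 were 2 of the 3621 genes (27.9%). That call rested on the setting: the adjusted p was 0.045 with TMM scaling, 0.056 with limma-voom, 0.058 with edgeR and 0.17 with the library labelled CAL-29 KC in the fit. Leaving out the libraries with AP-2α, AP-2γ or the second control virus gave 0.21, 0.011 and 0.18. CITED2 was called under 5 of 10 alternatives. Its log2FC was negative under all 10, from -2.0004 without AP-2γ to -0.91 without AP-2α. In RT-112 it was -0.23 (SE 0.34) and in CAL-29 -0.49 (SE 0.42), and the test of a difference between lines gave an adjusted p of 0.31. All tests of WWOX within a line, here and below, treat its libraries with and without WWOX as independent. Without the library labelled CAL-29 KC, WC alone carried AP-2γ in CAL-29, and the AP-2γ term of that line fits it fully. The WWOX effects in CAL-29 on 17 libraries, here and below, therefore rest on KK, KA, WK and WA. Whether the libraries with WWOX of a line shared a first transduction is not given in the sources used here. If they did, these p-values hold no variation between transductions.

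CITED4 (chromosome 1, 40861054 to 40862363 on the minus strand), a close relative that also binds p300 and CBP, did not part with any transduction. In RT-112 it stood at 34.2 (KK), 22.7 (KA) and 25.4 CPM (KC) without WWOX and at 40.5 (WK), 36.7 (WA) and 30.6 CPM (WC) with it. In HT-1376 it stood at 172 (KK), 212 (KA) and 359 CPM (KC) without WWOX and at 236 (WK), 221 (WA) and 177 CPM (WC) with it, with KC far above the rest. The CAL-29 libraries held it at 188 (KK) and 173 CPM (KA) without WWOX, at 163 (WK), 190.9 (WA) and 138 CPM (WC) with it, and at 287 CPM in the library labelled CAL-29 KC. Its log2FC was 0.04 (SE 0.16) with WWOX, -0.07 (SE 0.19) with AP-2α and -0.11 (SE 0.20) with AP-2γ, and each sign turned under at least 1 alternative.

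The repressors of AP-2 behaved unlike each other. KCTD1 (chromosome 18, 26454910 to 26657401 on the minus strand) stood in HT-1376 at 9.08 (KK), 17.4 (KA) and 9.79 CPM (KC) without WWOX and at 20.2 (WK), 23.65 (WA) and 20.2 CPM (WC) with it. All 3 libraries with WWOX were above the 3 without it, as were 12.8% of genes in that line. In CAL-29 it stood at 37.05 (KK) and 36.1 CPM (KA) without WWOX, at 38.95 (WK), 41.8 (WA) and 49.8 CPM (WC) with it, and at 12.6 CPM in the library labelled CAL-29 KC. The groups did not overlap there, with or without that library, and 9.0% of genes were higher in this way without it. In RT-112 they overlapped, at 24.1 (KK), 26.6 (KA) and 34.2 CPM (KC) without WWOX and at 27.7 (WK), 22.8 (WA) and 19.2 CPM (WC) with it.

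The log2FC of KCTD1 with WWOX was 0.85 (SE 0.23) in HT-1376 with a limma adjusted p of 0.052, just outside the threshold. KCTD1 was called under 3 of 10 alternatives, and the adjusted p ran from 0.023 to 0.21. That p was 0.023 with TMM scaling, 0.040 with limma-voom and 0.030 with edgeR, and 0.21 with the library labelled CAL-29 KC in the fit. Over the 3 lines KCTD1 had 0.28 (SE 0.19), and without HT-1376 -0.07 (SE 0.19). The value was -0.28 (SE 0.23) in RT-112 and 0.14 (SE 0.29) in CAL-29, and the test of a difference between lines gave an adjusted p of 0.15.

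KCTD15 (chromosome 19, 33795933 to 33815763 on the plus strand) was steady in HT-1376, at 25.6 (KK), 29.8 (KA) and 25.7 CPM (KC) without WWOX and at 27.35 (WK), 25.95 (WA) and 29.03 CPM (WC) with it, with 27.2 ± 1.81 CPM (SD, n = 6) the smallest spread relative to its mean of any of the 7 genes in a line (6.65%). In RT-112 it stood at 12.5 (KK), 13.5 (KA) and 13.25 CPM (KC) without WWOX and at 17.1 (WK), 9.73 (WA) and 10.1 CPM (WC) with it. The CAL-29 libraries held it at 26.1 (KK) and 33.6 CPM (KA) without WWOX, at 11.9 (WK), 27.8 (WA) and 12.5 CPM (WC) with it, and at 42.3 CPM in the library labelled CAL-29 KC. WK and WC were the low libraries of CAL-29 and WA stood with KK and KA. The log2FC of KCTD15 with WWOX was -0.26 (SE 0.19) over the 3 lines and -0.68 (SE 0.30, limma adjusted p = 0.40) in CAL-29.

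**Figure D4:**
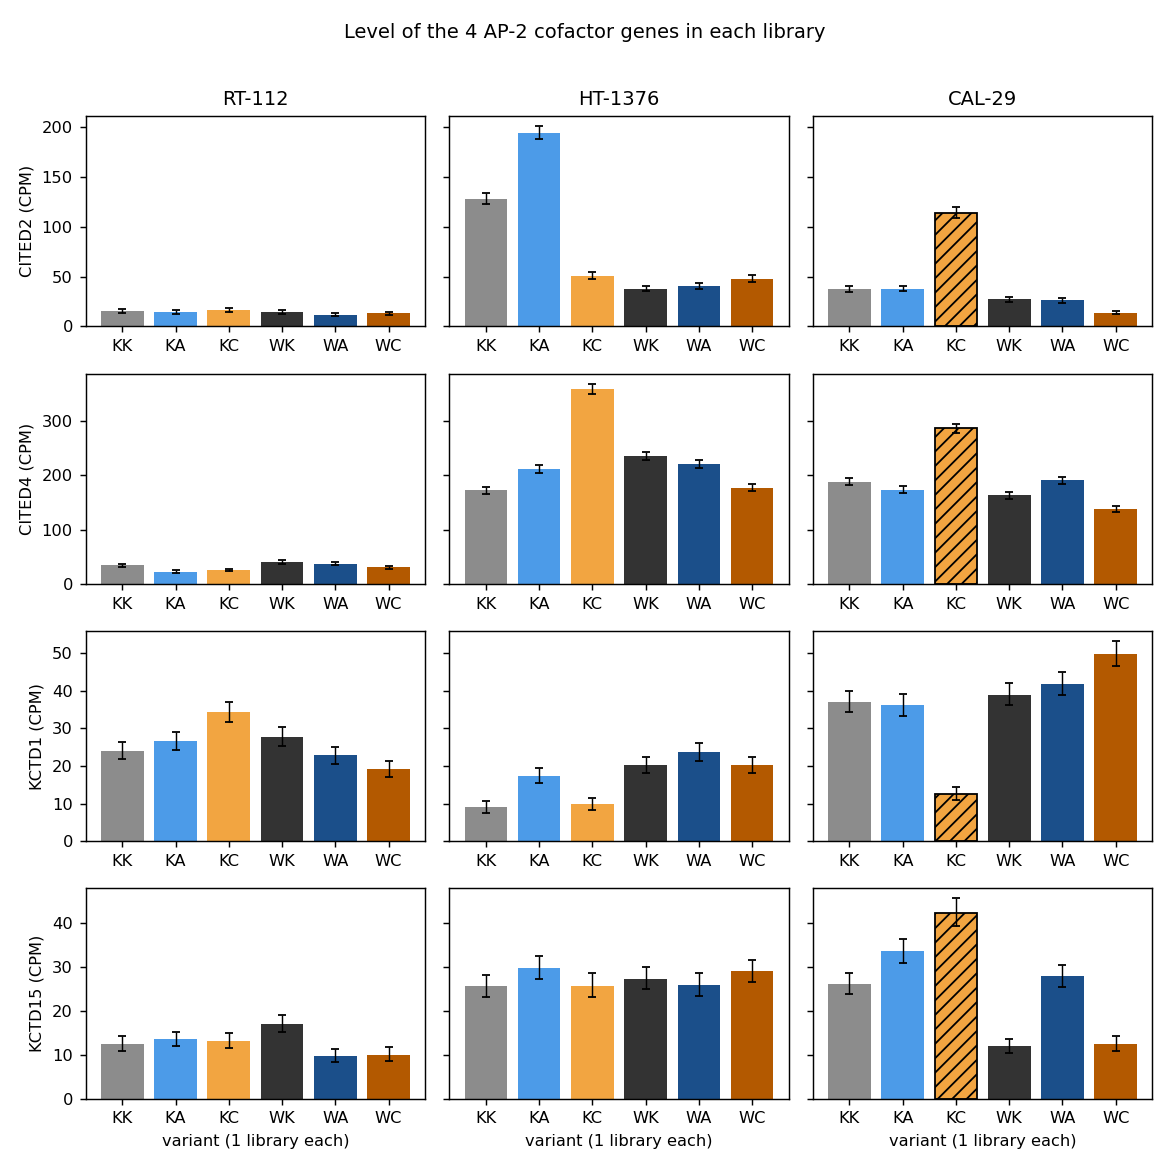
Bars give the CPM of CITED2, CITED4, KCTD1 and KCTD15 (rows, linear axes from 0) in each library, by variant and cell line (columns), with 95% exact Poisson intervals, and the library labelled CAL-29 KC is hatched. CITED2 ranged from 37.9 to 194 CPM in HT-1376 and from 11.7 to 16.5 CPM in RT-112, and that library stood at 114 CPM of CITED2 and 12.6 CPM of KCTD1.

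Set by cell line, the effect of WWOX transduction on WWOX itself was -0.33 (SE 0.23) in RT-112, -0.06 (SE 0.23) in HT-1376 and 0.85 (SE 0.28, limma adjusted p = 0.24) in CAL-29, on the log2 scale. In the CAL-29 libraries TFAP2A had 0.79 (SE 0.31, adjusted p = 0.32), and 0.09 (SE 0.40) with the library labelled CAL-29 KC in the fit. The CAL-29 values of 0.85 and 0.79 rest on KK, KA, WK and WA and leave out WC. That library held WWOX at 62.4 CPM (63.7 in KK, 51.3 in KA) and TFAP2A at 31.7 CPM (35.4 in KK, 49.9 in KA). TFAP2C had -0.80 (SE 0.42, adjusted p = 0.25) in HT-1376, where each library with WWOX was below its match. None of the 7 genes was called in RT-112, where no gene was (0.0%, and 1019 genes, 7.84%, at an unadjusted p under 0.05), or in CAL-29, where 94 genes were (0.724%). EdgeR and limma-voom also called 0 genes in RT-112, and TMM scaling 1. In the test of a difference in the WWOX effect between lines, 376 genes were called (2.89%) and 0 of the 7, with an adjusted p of 0.155 for WWOX. For AP-2α and AP-2γ that test called 0 genes (0.0%) with limma, while 465 (3.58%) and 1796 genes (13.8%) had an unadjusted p under 0.05, limma-voom called 0 for both and edgeR 0 and 1. For AP-2γ limma called 16 genes with TMM scaling, 29 with no filter and 7 with a pseudocount of 2 CPM, none of them among the 7.

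Between cell lines 6 of the 7 genes had a called difference, as most genes did, and TFAP2C had none. Only the variants of 1 line stand behind each level, so these tests describe 3 lines and their derivatives. CPM shifted as a whole between lines: the median log2 difference of all genes was -0.43 for RT-112 against HT-1376, -0.82 for RT-112 against CAL-29 and 0.45 for CAL-29 against HT-1376, and TMM scaling brought it to -0.09, -0.14 and 0.09. Differences are therefore given in both scales, on 17 libraries. Of the 7 genes limma called 5 for RT-112 against HT-1376, where 62.1% of all genes were called (19.6% higher and 42.5% lower in RT-112). It called 6 for RT-112 against CAL-29, where 72.5% were (16.0% higher and 56.5% lower), and 4 for CAL-29 against HT-1376, where 60.8% were (42.6% higher and 18.2% lower in CAL-29). With TMM scaling it called 5, 2 and 6, against 59.4%, 69.6% and 56.9% of all genes, CITED4 and WWOX being those for RT-112 against CAL-29, and the higher genes went from 2551 to 3705, from 2073 to 4130 and from 5534 to 3882.

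CITED4 was lowest in RT-112 on both scales, with 31.7 ± 6.79 CPM (SD, n = 6) against 229.6 ± 68.3 (n = 6) in HT-1376 and 171 ± 21.4 (n = 5) in CAL-29. The log2 difference was -2.82 (SE 0.19, adjusted p = 5.3e-09) to HT-1376 and -2.42 (SE 0.20, adjusted p = 8.2e-08) to CAL-29, and -2.45 and -1.68 with TMM scaling. CAL-29 and HT-1376 differed by -0.40 (SE 0.20, adjusted p = 0.096) as deposited and -0.78 (adjusted p = 0.0051) with TMM scaling. CITED2 was highest in HT-1376, by -2.21 (SE 0.27, adjusted p = 4.5e-06) for RT-112 and -1.29 (SE 0.29, adjusted p = 0.0014) for CAL-29, and its RT-112 and CAL-29 levels differed as deposited (-0.92, adjusted p = 0.0096) but not with TMM scaling (-0.20, adjusted p = 0.53).

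WWOX was highest in CAL-29, with 80.3 ± 42.2 CPM (n = 5) against 22.5 ± 3.29 (n = 6) in RT-112 and 20.8 ± 3.01 (n = 6) in HT-1376. CAL-29 exceeded HT-1376 by 1.79 (SE 0.23, adjusted p = 8.2e-06) and RT-112 fell by 1.68 below CAL-29 (SE 0.23, adjusted p = 1e-05), and the TMM values were 1.42 and -0.95. RT-112 and HT-1376 had no called difference (0.11, SE 0.21, adjusted p = 0.67, and 0.48 with TMM scaling, adjusted p = 0.060). TFAP2A was higher in HT-1376 than in RT-112 (-1.61, SE 0.21, adjusted p = 6.8e-06, TMM -1.24) and CAL-29 (-0.62, SE 0.22, adjusted p = 0.023, TMM -0.99). TFAP2C, with 125 ± 86.6, 146 ± 52.8 and 134 ± 115 CPM in RT-112, HT-1376 and CAL-29, had no called difference in either scale. These levels take in the libraries with the AP-2γ vector, which widen the spread. The levels of WWOX and TFAP2A likewise take in libraries with the vector of that gene, WK of CAL-29 at 154.9 CPM of WWOX among them. In KK, with 1 library per line, TFAP2C stood at 57.95, 158 and 87.95 CPM in that order. WWOX stood there at 26.0, 22.4 and 63.7 CPM, and TFAP2A at 18.01, 69.0 and 35.4 CPM.

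KCTD1 was lowest in HT-1376, below RT-112 by a log2 difference of 0.67 (SE 0.22, adjusted p = 0.014, TMM 1.04) and below CAL-29 by 1.31 (SE 0.23, adjusted p = 0.00021, TMM 0.94). KCTD15 was lower in RT-112 than in HT-1376 (-1.09, SE 0.22, adjusted p = 0.00052, TMM -0.73). For RT-112 against CAL-29, KCTD1 had -0.63, KCTD15 -0.69 and TFAP2A -0.99 as deposited, all called, and 0.10, 0.03 and -0.25 with TMM scaling, none called. Libraries of 2 lines did not overlap for TFAP2A, CITED2, CITED4 and KCTD15 between RT-112 and HT-1376 (44.2% of all genes), for WWOX, CITED4 and KCTD1 between RT-112 and CAL-29 (54.5%), and for WWOX, CITED2 and KCTD1 between CAL-29 and HT-1376 (31.6%).

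**Figure D5:**
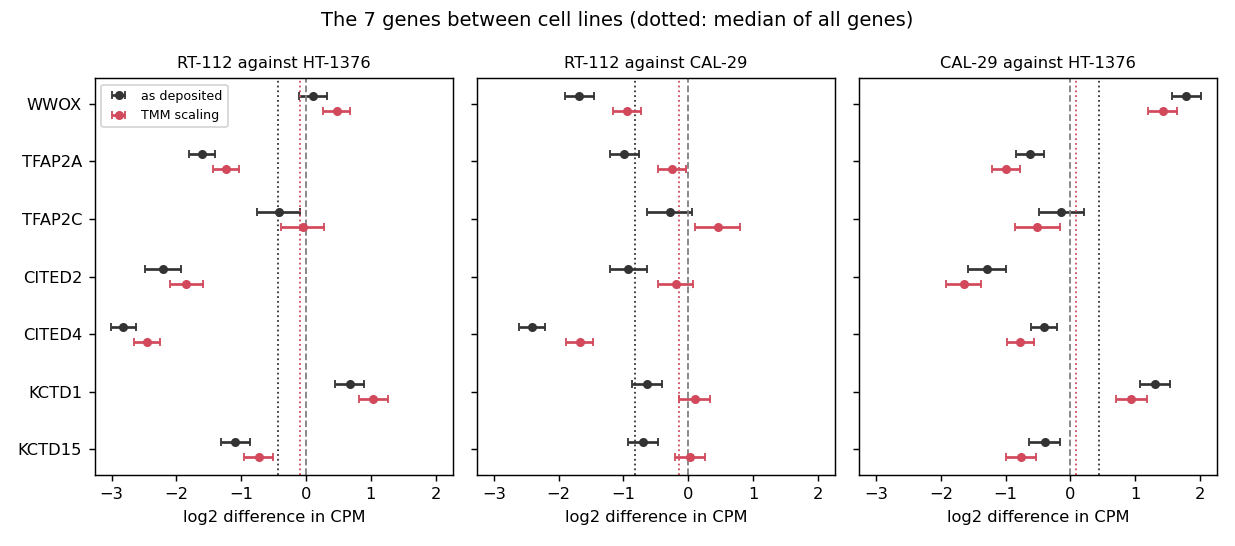
Points give the log2 difference in CPM of the 7 genes between cell lines, as deposited (dark) and with TMM scaling (red), with the SE of the limma fit as bars, and dotted lines give the median of all genes on each scale. CITED4 lies at -2.82 and -2.42 for RT-112 against HT-1376 and CAL-29, and WWOX at 1.79 for CAL-29 against HT-1376.

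Around the genes themselves, an RNA antisense to TFAP2A had the pattern most like it. TFAP2A-AS2 (chromosome 6, 10404502 to 10407928 on the plus strand), which starts within the TFAP2A gene, stood at 2.47 CPM in KA of RT-112 and at 0.28 to 0.44 CPM in the other RT-112 libraries. In CAL-29 it stood at 7.91 CPM in WA and 3.10 in KA, against 0.96 in WC, 1.18 in KK and 2.65 in WK. In HT-1376 it was highest in WA (1.53 CPM) and KA (1.25 CPM) and lowest in KK (0.59 CPM). Among genes past the filter it was the most like TFAP2A once the mean of each line was taken off (Pearson's r 0.89 over 17 libraries, given as a description). Both genes overlap, and since the use of strand in the authors' counting is not given in the sources used here, reads of one cannot be told from reads of the other. Its log2FC with AP-2α was 0.93 (SE 0.32) and was not called by limma. TFAP2A-AS2 passed the filter only through CAL-29 WA, a library with AP-2α. Its likeness to TFAP2A and its effect therefore rest in part on that library.

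Of the nearest genes with a value past the filter on each side of the 7, 2 of 14 were called with WWOX in HT-1376 (14.3%, against 9.71% of all genes). NUDT7, a peroxisomal nudix hydrolase gene next to WWOX, fell by 1.16 on the log2 scale (SE 0.26, adjusted p = 0.030), with 3.22 CPM in KK, 3.69 in KA and 4.04 in KC against 1.84, 1.09 and 1.21 in WK, WA and WC. The log2FC of NUDT7 was -0.37 (SE 0.26) in RT-112 and 0.98 (SE 0.32, limma adjusted p = 0.25) in CAL-29. The CAL-29 value rests on WK and WA (6.3 and 3.93 CPM) against KK and KA (2.63 and 1.99 CPM). It leaves out WC of CAL-29, which stood below KK and KA, at 1.29 CPM. NUDT7 passed the filter only through CAL-29 WK, a library with WWOX, at 6.3 CPM. LSM14A, a gene of P-bodies next to KCTD15, fell by 0.98 (SE 0.22, adjusted p = 0.028), with 30.25, 26.5 and 23.6 CPM against 12.3, 15.3 and 12.4. Their starts lie 376.9 and 376.6 kb from those of WWOX and KCTD15. The calls held under 3 of 9 alternatives for NUDT7 and 6 of 10 for LSM14A.

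Genes whose pattern within lines was most like that of each of the 7 are given by Pearson's r over 17 libraries, as a description in which libraries share their line. ZFP36L2 (r 0.92) and LINC01889 (0.90) were closest to WWOX and TFAP2A-AS2 (0.89) and CNBD2 (0.74) to TFAP2A, and MT2A (0.73) was close to TFAP2C. ZNRF2P2 (0.96) and TRAM2 (0.92) were closest to CITED2, RAB4B-EGLN2 and RAB4B (both 0.78) to CITED4, EI24 and BAG3 (both 0.91) to KCTD1, and WIPI1 (0.91) and ZNF70 (0.90) to KCTD15. By rank correlation 10 of the 14 genes found in this way left the top places. Among the 7 themselves no pair was closely alike: r ran from -0.51 between TFAP2C and KCTD15 to 0.37 between CITED2 and KCTD15.

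Lists of the other genes of the pathway were read in the same fits, and in the 5 comparisons and the 3 effects over all lines 0 genes of any list were called by limma. Of the other AP-2 and CITED genes, TFAP2E stayed between 0 and 1.35 CPM, under the filter, and TFAP2B, TFAP2D and CITED1 were not analysed here. Of 10 AP-2 partners, all tested, 1 was called with WWOX in HT-1376, where 9.71% of all genes were and 5.03% fell: PARP1, which encodes a DNA repair enzyme that binds AP-2, by 1.46 on the log2 scale (SE 0.32, adjusted p = 0.027), with 111, 108 and 94.5 CPM in KK, KA and KC and 22.0, 68.4 and 35.4 in WK, WA and WC. The median log2FC of the 10 was -0.42 there against -0.13 for all genes. Of 11 WWOX partners 10 were tested and 0 were called in any line, with a median of 0.0026 in HT-1376.

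Of 15 classical targets of AP-2, 11 passed the filter and 3 were called with WWOX in HT-1376, 2 higher and 1 lower, against 9.71% of all genes. The median log2FC of the 11 was -0.47 and that of all genes -0.13. MMP2, a gelatinase gene, rose by 3.80 (SE 0.52, adjusted p = 0.0049), from 0.13 CPM in KK, 2.72 in KA and 4.89 in KC to 31.0 in WK, 23.8 in WA and 38.2 in WC, and was called under all 10 alternatives, though its KK library lay under the level of 3 reads. GPX1, a glutathione peroxidase gene, rose by 0.74 (SE 0.19, adjusted p = 0.042), from 269, 278 and 371 CPM to 597, 393 and 552. ERBB3, a receptor tyrosine kinase gene, fell by 0.92 (SE 0.25, adjusted p = 0.047), from 27.75, 29.7 and 15.95 CPM to 12.6, 11.1 and 13.1. In CAL-29 ERBB3 had 1.21 (SE 0.30, adjusted p = 0.13), a value that leaves out WC (14.9 CPM, against 13.1 in KK and 9.79 in KA). The test of a difference between lines gave an adjusted p of 0.047 for ERBB3 and 0.043 for MMP2. The test between lines held under 2 of 10 alternatives for ERBB3 and 4 of 10 for MMP2. In HT-1376 the call of ERBB3 held under 2 of 10, that of GPX1 under 4 and that of PARP1 under 6. ESR1, MCAM, BCL2 and RET were under the filter. In bulk RNA, fewer cells with a transcript and fewer transcripts per cell cannot be told apart.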

How the data were processed

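CAGE-seq of 18 libraries, 6 variants in each of 3 bladder cancer cell lines, was analysed from a table of genes by libraries. The authors sequenced 75 nt single-end reads, mapped them to hg38 with BWA and then HISAT2 (2.0.5 in the submitters' processing notes), grouped tags into clusters by RECLU (Paraclu), kept reproducible clusters by an IDR filter and deposited 1 CPM value per gene and library, with 2 decimals. The annotation, the rule assigning clusters to genes and the total behind the CPM are not given in the sources used here, and the deposited columns sum to 935917 to 947110 CPM. Symbols were matched for 16553 of 16575 Ensembl identifiers, and positions are those of GENCODE 44. Whole reads were recovered from the step that 1 read is worth in each column: 99.97% to 99.99% of values were whole multiples within 0.0051 CPM. In the library labelled RT-112 WC the low values alone did not settle the step, and the values of all genes were used. A gene with no reads could hold up to 3 reads, 0.158 to 0.213 CPM. No library repeated another (smallest chi-square per degree of freedom 19.4).

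Genes with at least 5 CPM in 1 library were kept. Values as log2(CPM + 0.5) were tested with limma 3.58.1 (R 4.3.3), its empirical Bayes variance following the mean, and p-values were adjusted by Benjamini-Hochberg over all genes tested and called at 0.05. A fold change on this scale understates that of low genes. The 5 comparisons took in all 18 libraries and no cell line term, since the study treats the lines as replicates and its methods name no such term. The fits with terms for cell line, WWOX, AP-2α and AP-2γ, and those with separate effects in each line, used 17 libraries, without the one labelled CAL-29 KC. With separate effects, the AP-2γ term of CAL-29 then fits WC fully, so the WWOX effect in CAL-29 rests on KK, KA, WK and WA. The same cell line pairs libraries across variants by design, and after the mean of each variant was taken off, libraries of a line correlated (RT-112 0.742 to 0.915, HT-1376 0.588 to 0.896, CAL-29 0.036 to 0.881). Fits were tested on simulated data. Other settings tried were no filter, pseudocounts of 0.05 and 2 CPM, TMM scaling, limma-voom and edgeR 4.0.16 on the recovered reads, the cell line as a block or not, all 18 or 17 libraries, each line left out and each second virus left out in turn, and the block together with edgeR, which was chosen after seeing the data. The 7 genes and the lists were chosen with earlier results of these data known. Named by rule were the 7 genes, up to 4 genes past the threshold of each list, the nearest genes past the filter on each side, antisense genes, and the 2 genes most like each in pattern, of which 1 is not reported here. Intervals of single libraries are exact and cover counting error only. Python 3.11.15 with NumPy 2.4.6, pandas 2.3.3, SciPy 1.17.1 and matplotlib 3.10.9 was used.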

Additional observations from a re-analysis of the deposited data

Results flagged for a closer look

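The values of each of the 7 genes in a cell line were screened for a library far from the other 5 (or 4, without the library labelled CAL-29 KC) by Dixon's criterion, which chance alone meets in about 1 of 20 groups. Of 28 groups 8 met it. Each gene in CAL-29 was screened both with and without that library, so groups overlap and 8 of 28 cannot be set against that rate. WWOX in CAL-29 WK, at 154.92 CPM, stood apart from 22.4 to 69.3 CPM in the other libraries of the line and also from 51.3 to 69.3 CPM without the library labelled CAL-29 KC. TFAP2A in RT-112 KA, at 46.77 CPM, stood apart from 18.01 to 25.3 CPM. TFAP2C in CAL-29 WC, at 338.56 CPM, stood apart from 70.3 to 93.1 CPM once the library labelled CAL-29 KC was left out. By their labels these 3 libraries carry the gene in question in their vector. CITED4 in HT-1376 KC, at 359.29 CPM, stood apart from 172 to 236 CPM. The library labelled CAL-29 KC stood apart for CITED2 at 113.99 CPM (others 13.8 to 37.8), for CITED4 at 286.63 CPM (others 138 to 190.9) and for KCTD1 at 12.58 CPM (others 36.1 to 49.8). What sets these libraries apart was not tested.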

How the results depend on the processing

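Each variant had 1 library per line, 1 library stood closer to another line than to its label, and values per gene cannot separate vector from genome. Among the 7 genes, counts of calls stayed within 1.5 times the reported count except in 2 comparisons. For RT-112 against CAL-29 the count of 6 was 2 with TMM scaling, 2 with limma-voom and 2 with edgeR, and 3 to 6 when a second virus was left out, the lowest without AP-2α. For WWOX in HT-1376 the count of 1 was 2 with TMM scaling, 0 with all 18 libraries, and 0 to 1 when a second virus was left out, with 0 without AP-2α or without the control. With limma-voom and with edgeR the count there stayed at 1, but the gene called was KCTD1 and no longer CITED2. With the cell line as replicate block the 5 comparisons called 0 of the 7, the lowest adjusted p being 0.46 for TFAP2C in WC/KK, so the block changed no call among them. Over all genes, the 1262 called with WWOX in HT-1376 were 141 with all 18 libraries and 402 to 644 when a second virus was left out. The 94 called in CAL-29 ranged from 0 to 237 over the alternatives, and the 376 called by cell line from 0 to 846.

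Of 615 log2FC under alternatives 40 turned sign. When a line was left out, WWOX ranged from -0.24 (without CAL-29) to 0.53 in WK/KK, from -0.26 to 0.0068 (without RT-112) in WC/KK and from -0.20 (without CAL-29) to 0.27 with WWOX transduction. For the other genes with WWOX transduction these ranges were -0.090 (without CAL-29) to 0.26 for TFAP2A, -0.28 to 0.29 (without HT-1376) for TFAP2C, -0.17 (without RT-112) to 0.20 for CITED4 and -0.073 (without HT-1376) to 0.60 for KCTD1. With AP-2α they were -0.12 (without HT-1376) to 0.16 for CITED2, -0.15 to 0.078 (without RT-112) for CITED4, -0.019 (without HT-1376) to 0.30 for KCTD1 and -0.13 (without CAL-29) to 0.42 for KCTD15. With AP-2γ the range was -0.40 to 0.10 (without RT-112) for CITED4. When a second virus was left out, TFAP2C in CAL-29 against HT-1376 ranged from -0.50 to 0.33 (without AP-2α), and WWOX with its own virus in HT-1376 from -0.31 to 0.086 (without AP-2α), with 0.039 without the control.

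Other tools also turned signs. WWOX in WC/KK was 0.090 with TMM scaling, 0.094 with limma-voom, 0.16 with edgeR and 0.097 with edgeR and the replicate block, and in HT-1376 with WWOX transduction it was 0.065, 0.068 and 0.072 with TMM scaling, limma-voom and edgeR. In that order TFAP2C with WWOX transduction was 0.0021, 0.014 and 0.054, and for RT-112 against CAL-29 TFAP2C was 0.46, 0.47 and 0.51, KCTD1 0.10, 0.086 and 0.11, and KCTD15 0.028 and 0.0081 in the first 2. With all 18 libraries TFAP2A was -0.028 and CITED4 -0.049 with WWOX transduction, and CITED4 0.032, KCTD1 -0.18 and KCTD15 0.031 with AP-2γ. CITED4 with AP-2γ was 0.026 with edgeR, and KCTD1 with AP-2γ was -0.078 with no replicate block. The cause was not tested.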
